A study of Saccharomyces cerevisiae with 12 samples.

Results

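Ribonucleotide reductase is the enzyme that turns ribonucleotides into the deoxyribonucleotides from which DNA is made. In budding yeast its large subunit is Rnr1, with Rnr3 as an isoform that is made mostly when DNA is damaged, and its small subunit is built from Rnr2 and Rnr4. The DNA damage checkpoint runs through the kinases Mec1, Rad53 and Dun1. It relieves the enzyme in several ways: the inhibitor Sml1 is destroyed, and the repressor Rfx1 (also called Crt1) leaves the promoters of RNR2, RNR3, RNR4 and of HUG1, which encodes another small inhibitor of the enzyme. RNR1 is instead transcribed mainly as cells pass from G1 into S phase, and RAD54, which encodes a DNA translocase of recombinational repair, is a damage-inducible gene outside the enzyme.

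The account concerns these 9 genes: RNR1, RNR2, RNR3, RNR4, HUG1, DUN1, SML1, RAD53 and RAD54. They were taken by gene symbol from the 5449 genes with a probe set on an Affymetrix yeast expression array, and each of the 9 had 1 probe set, so none had to be chosen among several. The levels come from 12 arrays. The 4 groups of 3 arrays each are slt2-deficient cells after 2 h with 100 µM sodium arsenate, untreated slt2-deficient cells, wild-type cells after 2 h with 100 µM sodium arsenate, and untreated wild-type cells. All are of strain BY4741, a haploid laboratory yeast of mating type a, in exponential growth in YEPD, a rich medium. SLT2 encodes a mitogen-activated kinase of the signalling route that guards cell wall integrity, and arsenate is a toxic analogue of phosphate. The labels do not say how SLT2 was inactivated or how many clones were used. The design text calls the replicates independent but does not name separate cultures. The p-values therefore reflect how far these samples differ, and that spread may be technical. The 2 h of exposure also lengthened growth of the arsenate cells, and exposure and growth time cannot be told apart.

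Values are log2 signals as deposited, and changes are differences of group means on that scale, with the standard error (SE) of limma, a linear model with moderated variances. Adjusted p-values are Benjamini-Hochberg values over all 5449 genes, and a gene is called changed when its adjusted p is under 0.05. Precision is limited by having 3 arrays in a group. An exact permutation test of 3 against 3 arrays cannot give a p below 0.1. SLT2 lay between 5.22 and 5.81 on the slt2 arrays, against 10.66 to 11.01 on the wild-type arrays. LEU2, URA3 and MET17, which are deleted in this strain, lay between 3.74 and 5.47 on all 12. The 9 genes lay between 6.37 and 13.75, above the level of those deleted genes on every array. The 5 markers of mating type a lay between 10.56 and 13.68 and the 2 measured markers of mating type alpha, STE3 and SAG1, between 6.99 and 9.46. Signals of HUG1, RNR3, RAD53 and RAD54 and the lowest of DUN1 reached into or below that range of the alpha markers. These genes thus lay above the deleted genes but not clear of the alpha markers. By the alpha markers, a signal above that of unexpressed genes was not shown for them. This limit holds for their changes given below.

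The wild-type arrays were far less alike than the slt2 arrays. Across genes, the SD within a group had a median of 0.07 in slt2 arsenate, 0.08 in slt2 untreated, 0.49 in wild-type arsenate and 0.21 in wild-type untreated arrays. Genes of the general stress response had a mean signal of 9.86 to 10.52 on the slt2 arrays, against 13.91, 12.81 and 10.45 on wild-type arsenate arrays 1, 2 and 3 and 9.73, 11.66 and 10.08 on wild-type untreated arrays 1, 2 and 3. The excess of 3′ over 5′ probe signal in 7 control transcripts, which rises as RNA degrades, was 1.79 on wild-type arsenate array 2 and 1.59 on wild-type untreated array 2. It was 0.92 to 1.17 elsewhere. By the stress genes, wild-type arsenate arrays 1 and 2 and wild-type untreated array 2 were the 3 arrays that stood apart. The arsenate effect in slt2 is given mainly from a model of the 6 slt2 arrays, and the other comparisons from a model of all 12.

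In slt2 cells HUG1 and RNR2, genes that the checkpoint is known to induce through Rfx1, rose after arsenate, by 1.94-fold and 1.29-fold. RNR4 and RNR3 lay higher on all 3 arsenate arrays but did not pass the test. No member was called lower. The differences of the 5 others lay between -0.07 and 0.10, and of these RNR1 and SML1 lay lower on all 3 arsenate arrays. In this model 2 of the 9 genes were called, both higher, where 2.46% of all genes were called in either direction and 1.91% were called higher.

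HUG1 (locus YML058W-A) had signals of 7.89, 7.95 and 8.16 in slt2 arsenate cells, against 7.14, 6.79 and 7.20 in slt2 untreated cells. All 3 arsenate arrays lay above all 3 untreated ones. The change was 0.96 (SE 0.12, 95% interval 0.66 to 1.25, limma adjusted p = 0.0158), which ranked 33 from the top among 5449 genes. The lowest untreated value was that of array 2, and without that array the call held (adjusted p = 0.018). The call was lost without slt2 arsenate array 2 (0.98, adjusted p = 0.0693) or slt2 arsenate array 3 (0.88, adjusted p = 0.0519).

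RNR2 (YJL026W), a gene of the small subunit that carries the iron cofactor, had signals of 13.44, 13.40 and 13.49 in slt2 arsenate cells, against 13.08, 13.06 and 13.07 in slt2 untreated cells. The untreated arrays were nearly identical, with an SD of 0.01, and the groups did not overlap. The change was 0.37 (SE 0.05, 95% interval 0.26 to 0.48, limma adjusted p = 0.0132). The call was lost without slt2 arsenate array 1 (0.37, adjusted p = 0.0642) or slt2 untreated array 3 (0.37, adjusted p = 0.0688), while the size of the change hardly moved.

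RNR4 (YGR180C), the partner of RNR2 in the small subunit, had signals of 13.63, 13.66 and 13.68 in slt2 arsenate cells, against 13.48, 13.43 and 13.40 in slt2 untreated cells. The groups did not overlap, yet the change of 0.22 (SE 0.05, 95% interval 0.11 to 0.33) missed the threshold (limma adjusted p = 0.064). It passed when the arrays were quantile-normalised (0.21, adjusted p = 0.0362). RNR3 (YIL066C), the large-subunit isoform, had 8.90, 8.93 and 9.30 in slt2 arsenate cells, against 8.73, 8.55 and 8.69 in slt2 untreated cells. Arsenate array 3 stood above arsenate arrays 1 and 2, and the change of 0.39 (SE 0.12) did not pass (limma adjusted p = 0.158). In fold terms the arsenate level was 1.31 times the untreated level for RNR3 (95% interval 1.08 to 1.58) and 1.17 times for RNR4 (1.08 to 1.26).

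**Figure D1:**
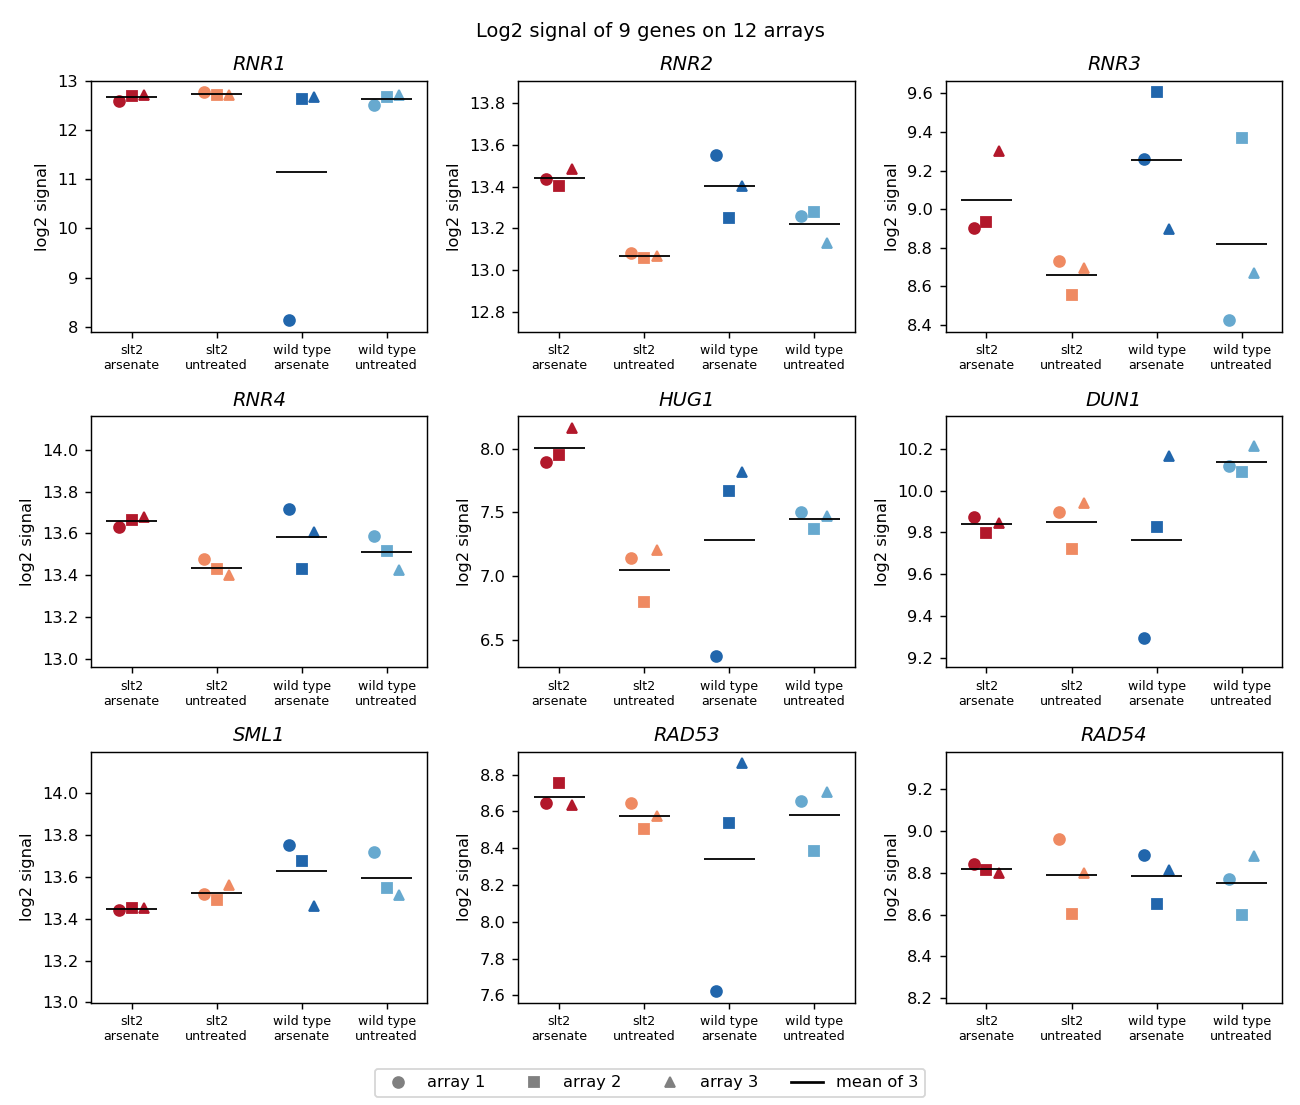
Log2 signal of the 9 genes on each of the 12 arrays, 1 panel per gene with its own vertical axis. Symbols mark array 1, 2 and 3 of a group and black lines the group means. In HUG1, RNR2, RNR3 and RNR4 the slt2 arsenate arrays lie above the slt2 untreated arrays, and in RNR1 wild-type arsenate array 1 lies at 8.13.

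The 4 genes named above were also the 4 members whose slt2 groups did not overlap with arsenate higher, which held for 15.3% of all genes. Groups did not overlap with arsenate lower for 2 members, RNR1 and SML1, and for 7.27% of all genes. RNR1 (YER070W), the main large-subunit gene, had 12.60, 12.70 and 12.71 in slt2 arsenate cells, against 12.77, 12.72 and 12.72 in slt2 untreated cells. The difference of -0.07 was close to its error (SE 0.05, limma adjusted p = 0.563). SML1 (YML058W), the inhibitor gene next to HUG1 on chromosome XIII, had 13.44, 13.45 and 13.45 in slt2 arsenate cells, against 13.52, 13.49 and 13.56 in slt2 untreated cells (-0.07, SE 0.04, adjusted p = 0.471). Their intervals, -0.19 to 0.05 for RNR1 and -0.18 to 0.03 for SML1, leave room for falls smaller than the rise of RNR2.

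The kinase genes and RAD54 overlapped between the slt2 groups. DUN1 (YDL101C), whose kinase acts on Sml1 and Rfx1, had 9.87, 9.80 and 9.84 in slt2 arsenate cells and 9.90, 9.72 and 9.94 in slt2 untreated cells. Its difference was -0.01 (95% interval -0.18 to 0.15). RAD53 (YPL153C), the checkpoint kinase above Dun1, averaged 8.68 ± 0.06 in slt2 arsenate cells and 8.58 ± 0.07 in slt2 untreated cells (SD, n = 3 each). RAD54 (YGL163C) averaged 8.82 ± 0.02 in slt2 arsenate cells and 8.79 ± 0.18 in slt2 untreated cells (SD, n = 3 each). The differences of 0.10 for RAD53 and 0.03 for RAD54 did not pass (limma adjusted p = 0.458 and 0.919), and both turned below 0 with quantile normalization (-0.01 and -0.08), as did RAD54 with centred arrays (-0.01).

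HUG1, RNR2, RNR3 and RNR4 were also the 4 members with an unadjusted p under 0.05 in limma, against 16.7% of all genes. Over the 9 members the median arsenate effect in slt2 was 0.10, against 0.03 over all genes. When all 12 arrays shared 1 spread per gene, none of the 9 was called for the arsenate effect in slt2, where 0.0367% of all genes were. In that limma model HUG1 and RNR2 had unadjusted p = 0.0134 and 0.00685, in ranks 30 and 20 of 5449 by p, and 1.3% of all genes had an unadjusted p under 0.05. With arsenate arrays 1 and 2 and untreated array 2 of wild type left out, 1 wild-type arsenate array remained. The slt2 differences were then 0.96 for HUG1 and 0.37 for RNR2, as with all arrays. Without wild-type arsenate array 1 alone, HUG1 was called (limma adjusted p = 0.0253) and RNR2 was not (0.18). In that setting 6 of all 5449 genes were called.

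**Figure D2:**
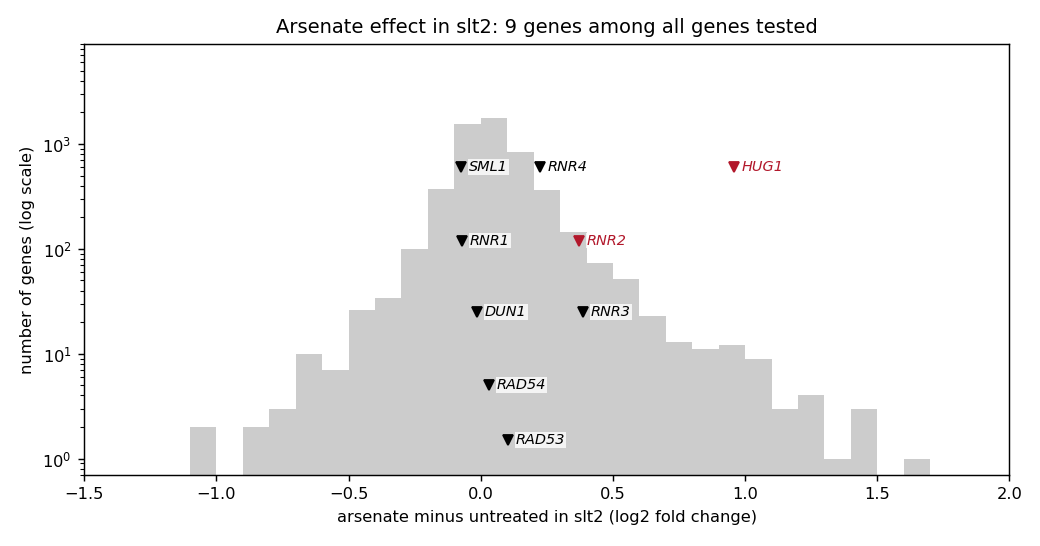
Number of genes (log scale) by arsenate effect in slt2, in steps of 0.1 log2 units from the model of the 6 slt2 arrays. Triangles mark the 9 genes, red where called, with heights chosen for legibility. HUG1 at 0.96 lies in the upper tail, RNR2 and RNR3 near 0.4 at its foot, and 4 genes above 2 are off the scale.

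Among wild-type cells no member was called after arsenate, where 0.0184% of all genes were. None of the 9 had an unadjusted p under 0.05 in limma, against 12.8% of all genes. No member had groups that did not overlap, against 8.57% of all genes. HUG1 had signals of 6.37, 7.66 and 7.82 in wild-type arsenate cells, against 7.50, 7.37 and 7.47 in wild-type untreated cells. Arsenate arrays 2 and 3 lay above every untreated array and array 1 lay more than 1 log2 unit below the untreated mean, so the mean difference was -0.16 (SE 0.32, adjusted p = 0.728). Without arsenate array 1 it was 0.30 (adjusted p = 0.658), and without the 3 arrays apart, which leaves 1 arsenate array assumed to vary like the other groups, it was 0.33 (adjusted p = 0.757).

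The small-subunit genes moved little in wild type. RNR2 had 13.55, 13.25 and 13.40 in wild-type arsenate cells, against 13.26, 13.28 and 13.13 in wild-type untreated cells (0.18, SE 0.11, limma adjusted p = 0.305). RNR4 had 13.72, 13.43 and 13.61 in wild-type arsenate cells, against 13.59, 13.52 and 13.43 in wild-type untreated cells (0.07, SE 0.11, adjusted p = 0.631). On both genes arsenate array 1 was the highest of the 6 and arsenate array 2 lay within the untreated range. The 95% intervals, -0.06 to 0.42 for RNR2 and -0.17 to 0.32 for RNR4, hold the values seen in slt2.

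RNR1 showed 1 array far from the rest. It had 8.13, 12.64 and 12.68 in wild-type arsenate cells, against 12.51, 12.68 and 12.73 in wild-type untreated cells. Wild-type arsenate array 1 differed by -4.51 log2 units from the untreated mean, a 22.8-fold lower signal and the 14th lowest difference among 5449 genes on that array, while RNR1 lay between 12.51 and 12.77 on the other 11 arrays. The group difference of -1.49 (SE 0.96, limma adjusted p = 0.317) rests on this array, since it was 0.02 without it. Late G1 genes, which RNR1 belongs with by its timing, had a mean signal of 8.95 on that array and of 10.40 to 10.66 on the other 11, and histone genes one of 12.68 against 13.27 to 13.55. General stress genes had their highest mean there, 13.91. The part of any of these in the RNR1 value was not tested.

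RAD53, DUN1 and HUG1 also had their lowest value on wild-type arsenate array 1. RAD53 had 7.62 on it, against 8.54 and 8.86 on the other wild-type arsenate arrays and 8.66, 8.38 and 8.71 on the untreated ones. DUN1 had 9.30, 9.83 and 10.16 in wild-type arsenate cells, against 10.12, 10.09 and 10.21 in wild-type untreated cells. On that array the differences from the untreated mean were -0.96 for RAD53, -0.84 for DUN1 and -1.07 for HUG1, with 0.18 as the median of all genes. Such falls were common on that array, since these members stood at percentiles 19.6, 21.6 and 17.7 of all genes. RNR2, RNR4, SML1 and RAD54 were not low there, with differences between 0.13 and 0.33. The group difference of DUN1 was -0.38 (SE 0.19, limma adjusted p = 0.299). It became a call, -0.58 (adjusted p = 0.0345), when wild-type arsenate array 3 was left out, a setting that called 1608 genes (29.5%) in all. For RAD53 the group difference was -0.24 (adjusted p = 0.516), and it was 0.12 without arsenate array 1.

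RNR3 varied widely within both wild-type groups. It had 9.26, 9.61 and 8.90 in wild-type arsenate cells, against 8.42, 9.37 and 8.67 in wild-type untreated cells (0.43, SE 0.25, limma adjusted p = 0.3). The highest of these 6 values were those of arsenate array 2, untreated array 2 and arsenate array 1, the same 3 arrays on which the general stress mean was highest (12.81, 11.66 and 13.91). Arsenate array 2 and untreated array 2 also had the highest 3′ minus 5′ signal, and the part of either measure in the RNR3 level was not tested. SML1 averaged 13.63 ± 0.15 in wild-type arsenate cells and 13.59 ± 0.11 in wild-type untreated cells, and RAD54 averaged 8.78 ± 0.12 in wild-type arsenate cells and 8.75 ± 0.14 in wild-type untreated cells (SD, n = 3 each), differences within the spread of the arrays.

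**Figure D3:**
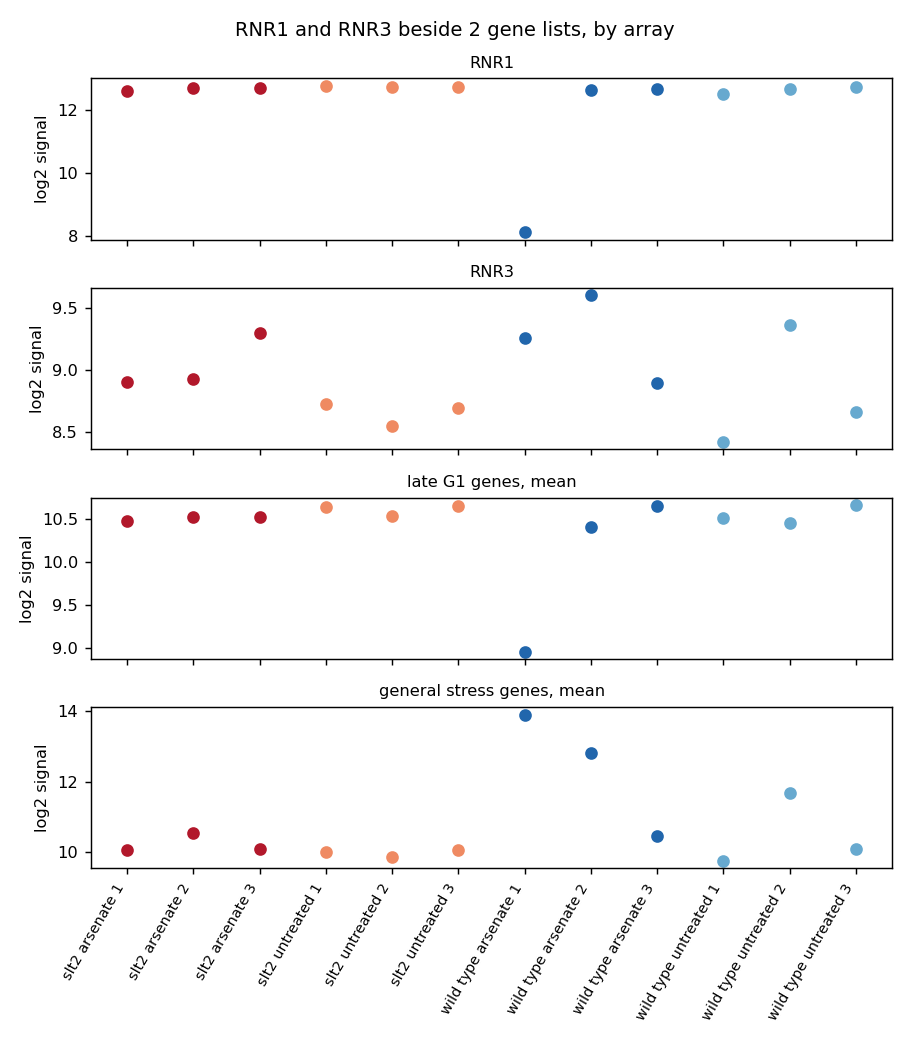
Log2 signal of RNR1 and RNR3 and mean log2 signal of 20 late G1 and 16 general stress genes on each of the 12 arrays, coloured by group. Wild-type arsenate array 1 has the lowest RNR1 (8.13) and late G1 mean (8.95), and RNR3 and the stress mean are both high on wild-type arsenate arrays 1 and 2 and wild-type untreated array 2, while slt2 arsenate array 3 has RNR3 at 9.30, above wild-type arsenate array 1, with a stress mean of 10.09.

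**Figure D4:**
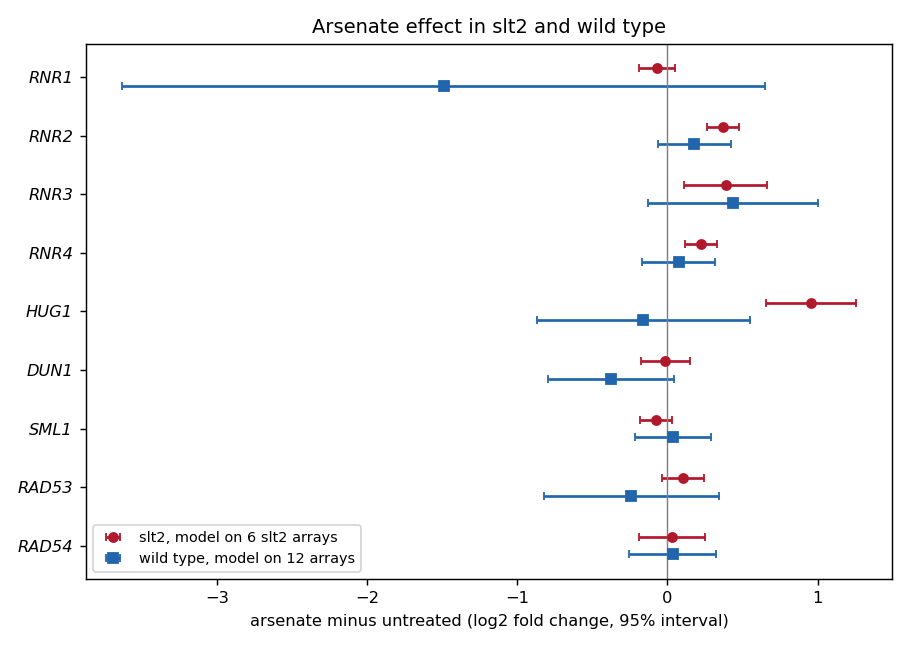
Arsenate effect (arsenate minus untreated, log2) of the 9 genes with 95% intervals, in slt2 from the model of its 6 arrays (circles) and in wild type from the model of 12 arrays (squares). The slt2 intervals of HUG1, RNR2, RNR3 and RNR4 lie above 0 and each wild-type interval includes 0, but the models have different spreads: with all 12 arrays the slt2 intervals of RNR3 (-0.18 to 0.95) and RNR4 (-0.020 to 0.46) include 0 too.

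Next, the genotypes were compared without and with arsenate. Without arsenate no member was called, where 0.0184% of all genes were, and none had an unadjusted p under 0.05 in limma, against 3.76% of all genes. HUG1, RNR2 and DUN1 had groups that did not overlap, each lower in slt2, a pattern that held for 17.9% of all genes. HUG1 averaged 7.05 ± 0.22 in slt2 untreated cells and 7.45 ± 0.07 in wild-type untreated cells (-0.40, SE 0.32). RNR2 averaged 13.07 ± 0.01 in slt2 untreated cells and 13.22 ± 0.08 in wild-type untreated cells (-0.15, SE 0.11). DUN1 averaged 9.85 ± 0.12 in slt2 untreated cells and 10.14 ± 0.07 in wild-type untreated cells (-0.29, SE 0.19). The limma adjusted p was 0.9996 for all 3. These SEs come from the model of all arrays and so carry the spread of wild-type arsenate arrays, which are not compared here. Their SD was 0.79 for HUG1, 0.15 for RNR2 and 0.44 for DUN1, above those of both untreated groups. Without wild-type arsenate array 1 the same differences had limma adjusted p = 0.226 for HUG1, 0.342 for RNR2 and 0.248 for DUN1. None passed, but 0.9996 does not show that the genotypes were alike.

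With arsenate again no member was called, where 0.0367% of all genes were. For HUG1 the unadjusted limma p was under 0.05, as it was for 33.0% of all genes. All 3 slt2 arsenate arrays of HUG1, from 7.89 up, lay above the 3 wild-type arsenate arrays, up to 7.82, a pattern that held for 16.5% of all genes. Its difference was 0.72 (SE 0.32, adjusted p = 0.15), it was 0.26 without wild-type arsenate array 1, and it was called without wild-type arsenate array 3 (0.99, adjusted p = 0.0338), as were 42.7% of all genes. SML1 had the opposite order, with slt2 arsenate arrays from 13.44 to 13.45 below wild-type arsenate arrays from 13.46 to 13.75, a pattern seen for 23.6% of all genes. Its difference of -0.18 (SE 0.11) did not pass (adjusted p = 0.246). RNR1 differed by 1.52 (SE 0.96, adjusted p = 0.252), and by 0.01 without wild-type arsenate array 1.

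The test of the difference between the arsenate effects, slt2 minus wild type, called no member and 0.0% of all genes. HUG1 had the smallest p of the members. Its difference was 1.12 (SE 0.45, 95% interval 0.11 to 2.12), with an unadjusted p = 0.0328 in limma, which 0.514% of all genes had under 0.05, and an adjusted p = 0.711. It rested in part on the low wild-type arsenate array 1, since the difference was 0.66 without that array. RNR2 and RNR4 differed by 0.19 (95% interval -0.15 to 0.54) and 0.15 (-0.20 to 0.49). These intervals include both no difference and differences as large as the rise of RNR2 in slt2.

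The order of the group means shows what can be told apart. HUG1 was highest in slt2 arsenate cells (8.004), followed by wild-type untreated (7.45), wild-type arsenate (7.29) and slt2 untreated cells (7.05). The 2 wild-type means in the middle of this order differed by less than the SD of the wild-type arsenate arrays, 0.79. RNR2 ran from slt2 arsenate (13.44) through wild-type arsenate (13.40) and wild-type untreated (13.22) to slt2 untreated cells (13.07), and RNR4 in the same order (13.66, 13.59, 13.51 and 13.43). For both genes the 2 arsenate means differed by less than the wild-type arsenate SD of 0.15, and their order turned in some settings. Between genotypes with arsenate, RNR2 differed by -0.029 with quantile normalization and by -0.037 without wild-type arsenate array 2, and RNR4 by -0.0067 without that array.

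Among RNR1, RNR2, RNR3, RNR4 and HUG1, the pair with the most similar profiles across arrays was RNR2 and RNR4. Over the 12 arrays RNR4 was the gene with the highest Pearson correlation to RNR2 among 5448 other genes (r = 0.93), and RNR2 was the one with the highest to RNR4. The arrays are few and fall into groups, so the correlations are a description. GTT2, a glutathione transferase gene, and ARR3, the arsenite exporter gene, followed for RNR2 (r = 0.90 and 0.85), and ARR1, the regulator of the arsenic resistance genes, and GTT2 for RNR4 (r = 0.83 and 0.81). Over the 9 arrays left when those 3 were left out, the profiles of RNR2 and RNR4 still correlated at 0.96, in rank 10 and rank 4, and the first gene was YHB1, a flavohemoglobin gene, for RNR2 (r = 0.99) and GSC2, a glucan synthase gene, for RNR4 (0.98).

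HUG1 followed other genes on the 2 sets of arrays. Over 12 arrays the nearest were BAP3, an amino acid permease gene (r = 0.92), MET14 of sulfate activation (0.89) and YCF1, the vacuolar glutathione conjugate transporter gene (0.88), and RNR2 was far down the list (r = 0.29, rank 1980). Over the 9 arrays they were MET3 (0.97), SUL2 (0.96) and RNR2 (0.95), where MET3 and SUL2 serve sulfate activation and uptake. RNR1 was nearest to RPL8A, RPP1B and POL30 over 12 arrays (r = 0.999, 0.998 and 0.998), a match set by the low value on wild-type arsenate array 1, and to CLB6 (0.92), IES1 (0.91) and AMN1 (0.90) over 9. CLB6 encodes an S-phase cyclin. RNR3 was nearest to RGS2, ICS2 and BNA1 over 12 arrays (r = 0.92, 0.91 and 0.91), and to RPH1, RCF2 and RBA50 over 9 (0.99, 0.95 and 0.93). RPH1 encodes a histone demethylase that is known as a repressor of the photolyase gene PHR1. RNR1 had r = -0.51 to RNR2 and -0.49 to RNR4 over 12 arrays, in ranks 3090 and 3058 of 5448 from the highest. Many genes were thus more negative, and the low value on wild-type arsenate array 1 weighs on these correlations too. Over the 9 arrays, without that array, they were -0.40 and -0.45, in ranks 3536 and 3762.

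The wider pathway was read from lists of its genes. In the model of the 6 slt2 arrays 2.46% of all genes were called. In slt2 none of the 21 checkpoint genes, from the sensor kinase gene MEC1 to the phosphatase gene PPH3, was called higher or lower after arsenate. Their median was -0.01, against 0.03 over all genes. The largest differences were 0.23 for DPB11, a replication and checkpoint scaffold, and 0.18 for DDC1, a subunit of the checkpoint clamp (limma adjusted p = 0.217 and 0.516). Of the 28 measured genes of DNA repair and damage response, 1 was called higher and 1 lower, with a median of 0.05. DDR48, a gene induced by DNA damage and by other stresses, had 12.27, 12.56 and 12.32 in slt2 arsenate cells, against 11.06, 11.19 and 11.17 in slt2 untreated cells. It rose by 1.24 (SE 0.09, adjusted p = 0.00148). RAD52, the recombination mediator gene, averaged 10.23 ± 0.05 in slt2 arsenate cells and 10.53 ± 0.06 in slt2 untreated cells. It fell by 0.30 (SE 0.05, adjusted p = 0.0452), and the call was lost without any of the 6 slt2 arrays other than untreated array 2 (adjusted p from 0.0852 to 0.17).

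The regulators of the enzyme and its electron supply each gave 1 call in slt2, where 2.46% of all genes were called. Of 10 regulators, WTM1 was called higher, and none was called lower. Wtm1 is the nuclear anchor that holds the Rnr2 and Rnr4 proteins away from the large subunit. WTM1 had 12.60, 12.63 and 12.62 in slt2 arsenate cells, against 12.16, 12.08 and 12.21 in slt2 untreated cells (0.47, SE 0.05, limma adjusted p = 0.00966). Of 13 genes of nucleotide supply and electron donation, DRE2 was called higher, and none was called lower. Dre2 takes part in making iron-sulfur clusters and the iron cofactor of the small subunit. DRE2 had 10.58, 10.45 and 10.79 in slt2 arsenate cells, against 9.91, 9.77 and 9.99 in slt2 untreated cells (0.72, SE 0.10, adjusted p = 0.0192), a call lost without slt2 arsenate array 1 (adjusted p = 0.0646) or slt2 untreated array 3 (0.059). The repressor gene RFX1 itself averaged 8.93 ± 0.06 in slt2 arsenate cells and 8.74 ± 0.08 in slt2 untreated cells (adjusted p = 0.2).

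Lists that mark the cell cycle and general stress give the setting of these changes in slt2, again where 2.46% of all genes were called. All 20 late G1 genes lay below 0, with a median of -0.09 and none called, and their mean signal was 10.48 to 10.52 on the arsenate arrays and 10.53 to 10.66 on the untreated ones. CLB6 had the largest difference, -0.28 (limma adjusted p = 0.111), which passed with centred arrays (adjusted p = 0.0407) and with quantile normalization (0.0362), and CLN1 the next, -0.16 (0.27). Of 7 measured histone genes none was called, with HTA1 and HHF1 at -0.06 each (adjusted p = 0.634 and 0.65). Of 16 general stress genes the catalase gene CTT1 fell by 0.57 (adjusted p = 0.0158), a call lost without slt2 arsenate array 1 or 3 or slt2 untreated array 3 (adjusted p from 0.0546 to 0.0649). Of the 16 genes 11 lay above 0 and 5 below, while 3327 of all 5449 genes lay above 0. The median of the list was 0.17, against 0.03 over all genes. HSP12, GPH1 and DDR2 differed by 1.03, 0.93 and 0.89 and HSP42 by -0.47 without passing (limma adjusted p = 0.144, 0.146, 0.194 and 0.155).

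In wild type none of these lists had a called gene for the arsenate effect with all arrays. Without wild-type arsenate array 3, 29.5% of all genes were called. In that setting only the list genes named for wild type were read, not the whole lists. They are the 2 genes of each list with the largest difference in wild type. Their calls are therefore favoured by that choice and cannot be set against the share of all genes. Of these, DIF1, WTM1, PHR1, DDR48, GRX1, PPH3, DDR2 and HSP26 were called (limma adjusted p from 0.0103 to 0.0485). CLB6, DCD1, HHT1, HTB2, POL30 and XRS2 were not (adjusted p from 0.053 to 0.148). DIF1, which encodes a protein that carries Rnr2 and Rnr4 into the nucleus, had 7.94, 9.93 and 9.96 in wild-type arsenate cells, against 10.42, 10.29 and 10.11 in wild-type untreated cells (-0.998, limma adjusted p = 0.299). Its groups did not overlap, with arsenate lower, a pattern that held for 159 of all 5449 genes, and the nearest values were 9.96 and 10.11. WTM1 had 14.33, 13.52 and 12.78 in wild-type arsenate cells, against 12.19, 13.19 and 12.37 in wild-type untreated cells (0.96, adjusted p = 0.299). PHR1, the photolyase gene, had 10.23, 7.81 and 7.44 in wild-type arsenate cells, against 7.19, 7.23 and 7.45 in wild-type untreated cells, and only array 1 of the 3 stood far above the untreated range. DDR48 had 13.99, 13.52 and 12.51 in wild-type arsenate cells, against 11.45, 12.39 and 11.16 in wild-type untreated cells, and was higher on every arsenate array (1.67, SE 0.38, adjusted p = 0.299). Without wild-type arsenate array 1 the differences were -0.33 for DIF1, 0.57 for WTM1, 0.33 for PHR1 and 1.35 for DDR48.

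Further list members in wild type differed in how far they rested on arsenate array 1. The glutaredoxin gene GRX1 differed by 0.98 and the deoxycytidylate deaminase gene DCD1 by -0.94, and the checkpoint genes XRS2 by 0.62 and PPH3 by -0.54 (limma adjusted p = 0.299 each). DCD1 had 8.26, 10.34 and 10.61 in wild-type arsenate cells, against 10.88, 10.42 and 10.72 in wild-type untreated cells. POL30, which encodes the sliding clamp of replication, had 9.07, 12.47 and 12.46 in wild-type arsenate cells, against 12.44, 12.60 and 12.55 in wild-type untreated cells. CLB6 differed by -0.92, the histone genes HTB2 by -0.92 and HHT1 by -0.26, and the stress genes DDR2 and HSP26 by 2.87 each. Without wild-type arsenate array 1, DDR2 and HSP26 still differed by 2.00 and 1.89 and GRX1 by 0.54, whereas DCD1 differed by -0.20, POL30 by -0.061, HTB2 by -0.067 and CLB6 by 0.084. In medians, wild type had -0.57 for late G1 genes, -0.29 for nucleotide supply and electron donation, 1.88 for general stress and 0.08 for the checkpoint, against 0.06 over all genes. The 2 negative medians include the low arsenate array 1. Late G1 genes averaged 8.95 on it, 10.40 and 10.66 on arsenate arrays 2 and 3, and 10.46 to 10.66 on untreated arrays. Nucleotide supply and electron donation genes averaged 10.98 on it, 11.53 and 11.61 on arsenate arrays 2 and 3, and 11.47 to 11.57 on untreated arrays.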

How the data were processed

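Total RNA of 12 yeast samples was measured on 12 Affymetrix arrays, in 4 groups of 3. The deposited values are log2 signals per probe set, and the submitters' processing notes name RMA and Affymetrix Expression Console as what the authors used. The sources used here do not give versions, settings or whether all arrays were run together. RMA corrects background and equalises the arrays, which can compress small and very large differences. Of 5814 probe sets, 5498 had 1 gene symbol, 0 several and 316 none. All 5498 were matched by gene number to RefSeq genes (R64). Where several probe sets named 1 gene (47 genes) the brightest was kept, which left 5449 genes. The 4-group model on 12 arrays and the model on the 6 slt2 arrays were fitted with limma 3.58.1 (lmFit, eBayes) in R 4.3.3 and tested on simulated data. Each simulated gene had 1 spread for all groups, so the models were not tested under the unequal spread of the real groups. Tables and figures used Python 3.11.15 and matplotlib 3.10.9.

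The members, the gene lists and the second model were chosen with earlier results of these data known. From each list the text names up to 3 called genes with the smallest p, or, where none was called, the 2 with the largest difference, for the arsenate effects in slt2 and wild type. RFX1, WTM2, HSP12, HSP42, GPH1 and DDR2 in slt2 fall outside that rule and were named after their values were seen. For 5 members the 3 genes with the highest Pearson correlation are named. Alternatives were a replicate term, 2 other scalings, a filter on dim genes (mean above 5.47, which left 5293 genes), averaged probe sets, group weights, fewer arrays and leaving out each array. Listed genes with no probe set here were not analysed.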

Additional observations from a re-analysis of the deposited data

Results flagged for a closer look

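For 3 of the 9 genes every slt2 array lay on one side of the wild-type mean without arsenate and on the other side with arsenate, as did 9.01% of all genes, and limma tested the difference itself. For HUG1 the slt2 arrays lay 0.24 to 0.65 below the wild-type untreated mean without arsenate, and 0.61 to 0.88 above the wild-type arsenate mean with it. The difference of the effects was 1.12 (SE 0.45, adjusted p = 0.711). Without wild-type arsenate array 1 the HUG1 difference was 0.66. For DUN1 the difference was 0.36 (SE 0.27, adjusted p = 0.711), and for RNR4 it was 0.15 (SE 0.15, adjusted p = 0.713), both within 2 SE of 0. None of the 3 passed.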

How the results depend on the processing

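The dim-gene filter and averaged probe sets changed no call or direction among the members. The number of genes called for arsenate in slt2, 2 in the model of 12 arrays, was 214 with one weight per group, 134 from the 6 slt2 arrays and 49 without the 3 wild-type arrays apart, with 3, 2 and 2 members called in place of 0. In the model of the 6 slt2 arrays it was 134 (104 higher, 30 lower), against 242 with centred arrays (158 higher, 84 lower), 354 with quantile normalization (187 higher, 167 lower) and 28 with the replicate block. The labels do not say what a replicate number marks. The deviations of same-numbered arrays correlated at 0.05 to 0.39 in slt2 and 0.04 to 0.47 in wild type, not all above 0.1, and 5 of 6 slt2 and 4 of 6 wild-type arrays correlated best with their own number, so pairing was not settled. With the replicate block 0 members were called (HUG1 adjusted p = 0.051, RNR2 0.064), and the calls of WTM1 (0.0594), RAD52 (0.0848) and CTT1 (0.0723) were lost, while DDR48 and DRE2 stayed called. The other comparisons called few genes. Arsenate in wild type gave 1, and 0 with one weight per group, 0 from 6 arrays, 2 with the replicate block and 3 without the 3 arrays apart. For slt2 against wild type with arsenate it was 2, and 0, 1, 1 and 1 in the same order, and without arsenate it was 1, and 2 without the 3 arrays apart.

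Leaving out 1 array at a time gave 1 to 6 calls for arsenate in slt2 (0 to 1 member), 41 to 107 in the 6-array model (1 to 2 members), 1 to 1608 in wild type (0 to 1 member), 0 to 22 for the difference of effects and 2 to 2324 for slt2 against wild type with arsenate (0 to 1 member). The 1608 (812 higher, 796 lower), 22 and 2324 all came without wild-type arsenate array 3, and the cause was not tested. Differences that changed sign in these fits ranged, for arsenate in slt2, from -0.080 to 0.031 for DUN1 and from -0.063 to 0.12 for RAD54. In wild type they ranged from -1.57 to 0.084 for CLB6, -0.43 to 0.30 for HUG1, -0.50 to 0.12 for RAD53, -0.042 to 0.10 for RAD54, -2.26 to 0.018 for RNR1 and -0.025 to 0.12 for SML1. For the difference of effects they ranged from -0.013 to 0.61 for RAD53, -0.10 to 0.083 for RAD54, -0.089 to 2.19 for RNR1 and -0.32 to 0.15 for RNR3. For slt2 against wild type with arsenate they ranged from -0.16 to 0.28 for DUN1, -0.019 to 0.60 for RAD53, -0.030 to 0.086 for RAD54, -0.037 to 0.11 for RNR2 and -0.0067 to 0.14 for RNR4, and without arsenate from -0.11 to 0.057 for RAD53, -0.048 to 0.13 for RAD54 and -0.36 to 0.11 for RNR3.

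Scaling reversed RAD53 (-0.012 in 12 arrays, -0.013 in 6) and RAD54 (-0.073 in 12 arrays, -0.076 in 6) for arsenate in slt2 with quantile normalization and RAD54 (-0.0071) with centred arrays. Quantile normalization also reversed RAD54 in wild type (-0.065), RNR2 between genotypes with arsenate (-0.029) and RAD53 between genotypes without it (0.11, and 0.053 with centred arrays). Without the 3 wild-type arrays apart, reversed values in wild type were 0.21 for CLB6, 0.33 for HUG1, 0.18 for RAD53, -0.011 for RAD54, 0.060 for RNR1 and -0.16 for SML1. For the difference of effects they were -0.013 for DUN1, -0.077 for RAD53, 0.041 for RAD54, -0.13 for RNR1, 0.036 for RNR3 and 0.082 for SML1. Between genotypes they were -0.33 for DUN1, -0.18 for RAD53, -0.012 for RNR1 and 0.15 for RNR3 with arsenate, and -0.037 for RAD54 and 0.11 for RNR3 without it. The cause of these was not tested.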

Other observations

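WTM1 and WTM2 are paralogs that act in the nuclear retention of the small subunit, and their wild-type differences had opposite signs. WTM2 was looked at after its values were seen. It had 8.26, 9.50 and 9.36 in wild-type arsenate cells, against 9.06, 9.88 and 9.51 in wild-type untreated cells, so that wild-type arsenate array 1, where WTM1 was highest (14.33), had the lowest WTM2 (-0.44, SE 0.32, limma adjusted p = 0.354). In slt2 cells WTM2 had 9.97, 9.94 and 10.29 with arsenate, against 9.96, 9.65 and 10.04 without it, and the groups overlapped (0.19, SE 0.13, limma adjusted p = 0.561). The difference between the WTM1 and WTM2 changes was not tested.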
